A study of Mus musculus with 8 samples.

Results

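The 10 genes Tdh, Gcat, Gldc, Shmt1, Shmt2, Mthfd1, Mthfd2, Phgdh, Psat1 and Psph encode enzymes that break down threonine, make serine and move one-carbon units on folate. They were taken by name, as 10 of the 22963 mouse genes with RefSeq transcript rows in the deposited tables. RNA had been sequenced from Bruce 4 cells, a male embryonic stem cell line of the C57BL/6J strain, wild type, after 2 weeks under each culture condition. The 4 groups were LN511 (laminin-511) coating with 2i medium, LN511 coating with Std medium, gelatin coating with 2i medium and gelatin coating with Std medium, with 2 libraries in each. All 8 libraries thus come from 1 cell line, and how separate the cultures behind the 2 replicates were is not given in the sources used here beyond their being called biological, so the tests measure the spread between these libraries. 2i medium is named for its inhibitors of the kinases MEK and GSK3 and holds stem cells in a naive state. The labels do not give the composition of either medium, including its threonine, serine, glycine or folate, which bears on every medium comparison below.

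Mouse embryonic stem cells are known for an unusual dependence on threonine. Threonine dehydrogenase (TDH) oxidises threonine in the mitochondrion, and the ligase GCAT splits the product into glycine and acetyl-CoA. The glycine cleavage system, of which GLDC is the decarboxylating subunit, then passes a carbon of glycine to folate. Serine is the other main source of such carbons: PHGDH, PSAT1 and PSPH make it from a glycolytic intermediate, SHMT1 (cytosolic) and SHMT2 (mitochondrial) convert it to glycine, and MTHFD1 (cytosolic) and MTHFD2 (mitochondrial) interconvert the resulting folates for purine and thymidylate synthesis.

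Expression is given in FPKM (fragments scaled to transcript length and to the mapped total of the library), summed over the RefSeq transcripts of a gene, so levels of different genes can be set side by side per length. Judged from the steps between low values, the deepest library held 1.19 times the fragments of the shallowest, with roughly 2240000 to 2690000 fragments each if the commonest lowest step is 1 fragment. At that depth Tdh rested on about 248 to 1662 fragments a library and Gldc on 190 to 915, while the longer transcript of Gcat rested on 38 to 166. Of 7 embryonic stem cell markers, 6 had transcript rows, and Pou5f1, which defines the pluripotent state, was at 949 to 1245 FPKM in the 8 libraries. Other stem cell markers moved with the medium in opposite directions: Nanog was at 446 to 614 FPKM in 2i, against 43.2 to 56.7 in Std, Zfp42 at 48.0 to 71.5 in 2i, against 17.0 to 21.97 in Std, and Utf1 at 77.5 to 86.7 in 2i, against 335 to 432 in Std. Among other cell types, 9 fibroblast markers summed to 0.701 to 1.04 FPKM in 2i, against 3.53 to 6.12 in Std, where Thy1 was the highest of them. The 4 neuroectoderm markers summed to 5.65 to 7.85 FPKM in 2i, against 11.2 to 23.0 in Std, through Nes alone, while Sox1 was higher in every 2i library than in any Std library and Pax6 and Zic1 were at or near 0. The 4 mesendoderm markers summed to 5.13 to 11.4 FPKM in 2i, against 0.673 to 1.95 in Std, and 7 primitive endoderm markers to at most 4.54. The 8 trophoblast markers summed to 32.9 to 40.5 FPKM in LN511 2i, 190 to 193 in LN511 Std, 37.5 to 39.5 in gelatin 2i and 24.7 to 28.8 in gelatin Std. The keratin genes Krt8 (87.3 and 93.4 FPKM) and Krt18 (75.5 and 76.7) made up most of the LN511 Std sum. Krt7 (10.2 and 7.65 FPKM) and Hand1 (3.12 and 2.35) were also higher in both LN511 Std libraries than in any other library. The same did not hold for Gata3, Tfap2c or Elf5. Cdx2, which defines the lineage, was at 0.544 and 0.534 FPKM in LN511 Std, against 1.81 and 2.15 in LN511 2i. The part of such marker differences in the results below was not tested. In RNA from whole cultures, fewer cells of a type and less RNA per cell cannot be told apart.

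The promoters of 4 members are shown, because Gldc, Phgdh and Mthfd2 fell and Gcat rose in 2i on gelatin. Each line is the 250 bases before a start site that the RefSeq promoter table gives (build GRCm38.p6, which is mm10), 5′ to 3′ on the strand of the gene. Gldc lies on the minus strand at chr19:30175442-30175691, Phgdh on the minus strand at chr3:98339970-98340219, Mthfd2 on the minus strand at chr6:83317605-83317854 and Gcat on the plus strand at chr15:79030624-79030873. The windows of Gldc, Phgdh and Gcat adjoin the gene spans given below, whereas that of Mthfd2 lies inside its span (83305704 to 83326011) and so does not precede the outermost annotated start. Capitals mark CCAAT or its reverse complement ATTGG, and GGGCGG or its reverse complement CCGCCC. 9 of the 10 genes had an entry in that table.
Gldc: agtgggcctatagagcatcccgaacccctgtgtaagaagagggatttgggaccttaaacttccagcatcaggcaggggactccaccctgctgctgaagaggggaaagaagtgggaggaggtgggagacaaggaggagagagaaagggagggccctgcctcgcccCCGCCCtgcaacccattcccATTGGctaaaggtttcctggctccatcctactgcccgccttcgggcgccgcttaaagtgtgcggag
Phgdh: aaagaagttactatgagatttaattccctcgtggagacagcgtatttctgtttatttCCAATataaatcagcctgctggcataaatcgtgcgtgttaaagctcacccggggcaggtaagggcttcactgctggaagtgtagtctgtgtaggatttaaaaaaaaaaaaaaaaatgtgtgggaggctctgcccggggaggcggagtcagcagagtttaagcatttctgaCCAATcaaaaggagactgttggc
Mthfd2: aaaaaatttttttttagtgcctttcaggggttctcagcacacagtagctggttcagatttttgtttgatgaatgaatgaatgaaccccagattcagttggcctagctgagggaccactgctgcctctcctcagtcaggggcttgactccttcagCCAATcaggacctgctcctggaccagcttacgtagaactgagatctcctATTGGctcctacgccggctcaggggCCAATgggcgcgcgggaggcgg
Gcat: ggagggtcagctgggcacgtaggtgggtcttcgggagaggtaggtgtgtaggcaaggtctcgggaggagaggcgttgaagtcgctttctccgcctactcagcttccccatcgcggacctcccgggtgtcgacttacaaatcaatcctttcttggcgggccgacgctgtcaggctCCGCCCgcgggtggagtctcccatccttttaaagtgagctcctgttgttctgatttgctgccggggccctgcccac
Mthfd2 held 3 matches to CCAAT on either strand, Phgdh 2 and Gldc 1, and Gcat held none. CCAAT was in 33.8% of 32851 windows of this length, and in those of 7 members. GGGCGG was in 32.7% of all windows and in those of 6 members, Gldc and Gcat among the 4 shown. CACGTG, the palindrome bound by Myc family factors, was in 6.02% of all windows, and TGATGNAA, a form of the element bound by ATF4 with C/EBP partners, in 3.45%. Neither of these letters stood in a window of a member, on either strand. Matches of GGGCGG can overlap one another.

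Threonine breakdown enzymes were the members that 2i raised most. Tdh (mm10 chromosome 14, 63492347 to 63509092) was at 299 and 318 FPKM in LN511 2i, against 70.5 and 71.3 in LN511 Std. Levels on gelatin were 353 and 318 FPKM in 2i, against 58.8 and 58.4 in Std. Both media thus gave levels that did not come near each other on either coating. The difference of log2(FPKM + 1), 2i minus Std, was 2.11 on LN511 (SE 0.08, limma adjusted p = 4.8e-05) and 2.49 on gelatin (SE 0.08, limma adjusted p = 2.79e-05), or 4.36-fold and 5.72-fold in mean FPKM. By p, Tdh stood at rank 9 of 10278 tested genes on LN511 and at rank 5 on gelatin.

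Gcat, the next enzyme of that route (mm10 chromosome 15, 79030874 to 79042531), moved the same way. It was at 36.8 and 40.1 FPKM in LN511 2i, against 15.1 and 12.3 in LN511 Std, and at 43.1 and 36.6 in gelatin 2i, against 17.2 and 15.8 in gelatin Std. No 2i library overlapped a Std library. The log2 difference was 1.43 on LN511 (SE 0.15, limma adjusted p = 0.00176) and 1.22 on gelatin (SE 0.15, limma adjusted p = 0.00397). The sum covers a pair of transcripts. The longer, of 2370 bases, was at 19.6 and 22.2 FPKM in LN511 2i, against 6.94 and 12.3 in LN511 Std, and at 28.03 and 25.8 in gelatin 2i, against 8.50 and 6.69 in gelatin Std. The shorter, of 1736 bases, was at 17.2 and 18.0 FPKM in LN511 2i, against 8.18 and 0 in LN511 Std, and at 15.1 and 10.8 in gelatin 2i, against 8.67 and 9.15 in gelatin Std. Both transcripts were therefore higher in every 2i library than in any Std library, and the 0 may be a failed split between them.

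Tdh outweighed Gcat in all libraries. The ratio of their FPKM was 8.15 and 7.94 in LN511 2i, against 4.66 and 5.78 in LN511 Std, and 8.18 and 8.68 in gelatin 2i, against 3.43 and 3.69 in gelatin Std. Of the summed FPKM of the 9 members other than Psph, Tdh made up 27.7% and 29.0% in LN511 2i, against 7.87% and 8.25% in LN511 Std. On gelatin its share was 32.7% and 30.8% in 2i, against 6.27% and 5.99% in Std. Its rise between the media is part of that sum, so the other members' shares fall with it by construction.

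Gldc, which opens the glycine cleavage reaction (mm10 chromosome 19, 30098441 to 30175441), went the other way. It was at 44.4 and 43.8 FPKM in LN511 2i, against 84.2 and 69.0 in LN511 Std, and at 21.3 and 18.8 in gelatin 2i, against 92.0 and 100.4 in gelatin Std. The 2i libraries were the lowest on each coating, and those on gelatin lay below those on LN511. The log2 difference was -0.78 on LN511 (SE 0.13, limma adjusted p = 0.00901) and -2.21 on gelatin (SE 0.13, limma adjusted p = 0.00021). On gelatin that is a mean in 2i of 0.208 times the mean in Std.

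**Figure D1:**
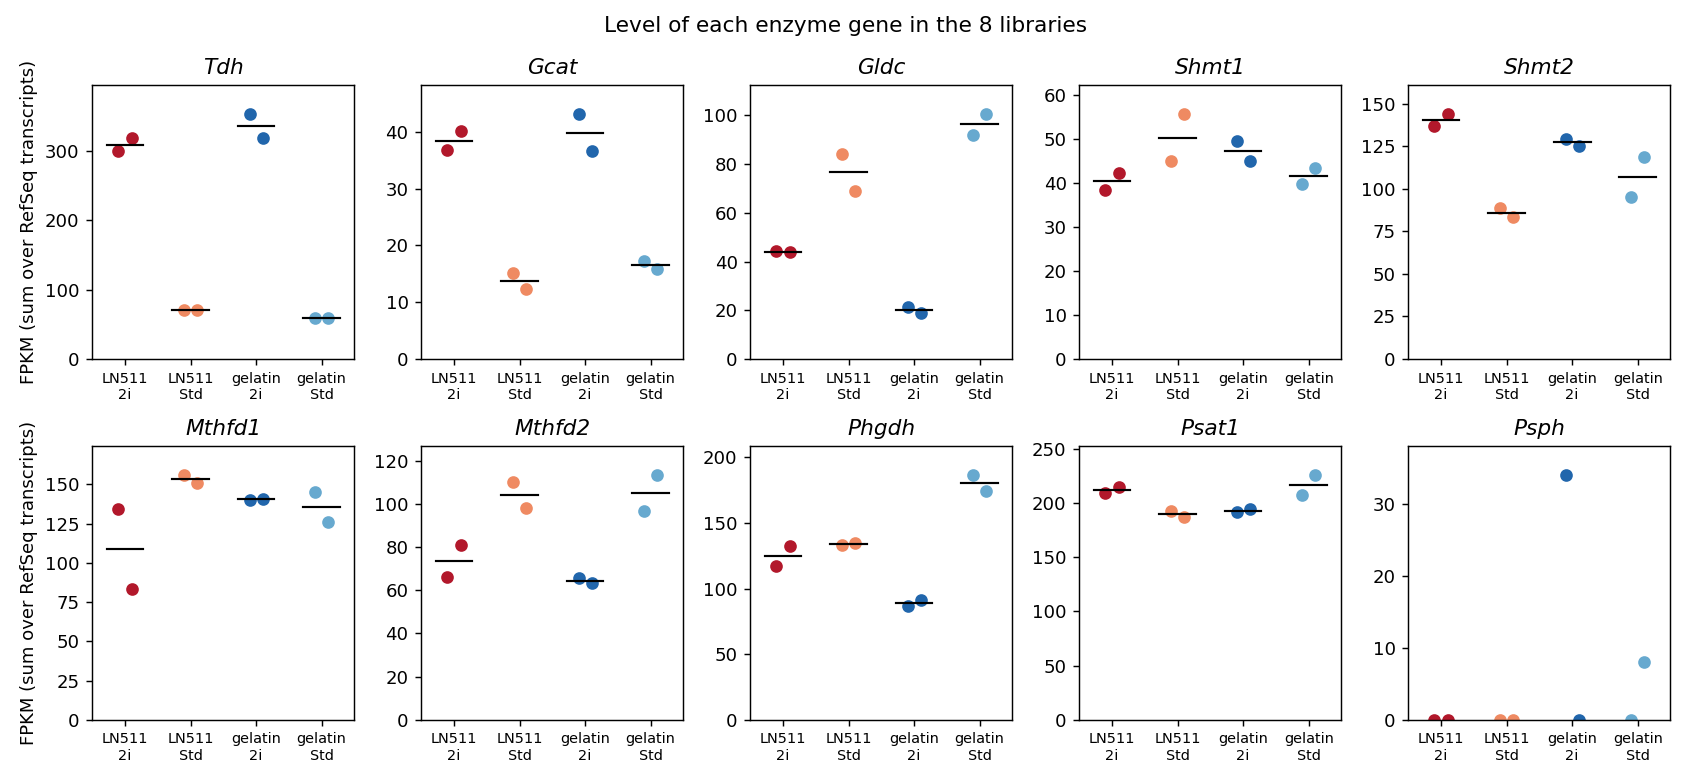
Level of each of the 10 genes, in FPKM summed over RefSeq transcripts (vertical axes, each from 0), in the 4 groups, with 1 point for each library and a line at the mean of a group. Tdh and Gcat are high in the 2i libraries and Gldc is low there, and no mean is drawn for Psph, which is listed at 0 in 6 of 8 libraries.

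Among the serine synthesis genes, RNA of the entry enzyme differed between the media on gelatin. Phgdh (mm10 chromosome 3, 98313171 to 98339969) was at 86.7 and 90.9 FPKM in gelatin 2i, against 187 and 174 in gelatin Std, a log2 difference of -1.01 (SE 0.09, limma adjusted p = 0.00101). On LN511 it was at 117 and 132 FPKM in 2i, against 133 and 135 in Std, which did not pass (log2 -0.10, 95% interval -0.31 to 0.10, limma adjusted p = 0.459). The gelatin groups were thus the lowest and the highest of the 4, with both LN511 groups between them. Psat1, the aminotransferase of the second step (mm10 chromosome 19, 15905123 to 15925059), kept to a narrow range. It was at 210 and 215 FPKM in LN511 2i, against 193 and 188 in LN511 Std, and at 192 and 194 in gelatin 2i, against 207 and 226 in gelatin Std. Neither medium difference passed, with intervals of -0.01 to 0.32 on LN511 and -0.33 to 0.002 on gelatin on the log2 scale. Another annotated Psat1 transcript was listed at 0 in all 8 libraries.

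Psph, the phosphatase of the last step (mm10 chromosome 5, 129765558 to 129787443), gave no usable value. Its single transcript was at 34.1 FPKM in gelatin 2i replicate 1 and 8.10 FPKM in gelatin Std replicate 2 and listed at 0 in the other 6 libraries. The higher of these is about 148 fragments, and a 0 beside it in the other gelatin 2i library may be a failed estimate. Psph was set aside before the fit, and 9 of the 10 members were tested.

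Of the serine hydroxymethyltransferases, Shmt2 rose in 2i on LN511 and Shmt1 passed on neither coating, and the difference between these genes was not tested. Shmt2, the mitochondrial enzyme (mm10 chromosome 10, 127517123 to 127522444), was at 137 and 144 FPKM in LN511 2i, against 88.7 and 83.4 in LN511 Std, a log2 difference of 0.70 (SE 0.11, limma adjusted p = 0.00887). On gelatin it was at 129 and 125 FPKM in 2i, against 94.9 and 119 in Std, which did not pass (log2 0.26, 95% interval -0.01 to 0.53, limma adjusted p = 0.184). One of its transcripts, of 2238 bases, was listed at 0 in gelatin Std replicate 1 and at 26.1 FPKM in replicate 2, so the lower of the Std sums may miss part of the gene. Shmt1, the cytosolic enzyme (mm10 chromosome 11, 60788897 to 60811265), was at 38.5 and 42.3 FPKM in LN511 2i, against 45.0 and 55.7 in LN511 Std, and at 49.6 and 45.1 in gelatin 2i, against 39.9 and 43.4 in gelatin Std. It passed on neither coating, with log2 intervals of -0.63 to 0.02 on LN511 and -0.14 to 0.50 on gelatin. The ratio of Shmt2 to Shmt1 was 3.56 and 3.40 in LN511 2i, against 1.97 and 1.499 in LN511 Std, and 2.61 and 2.78 in gelatin 2i, against 2.38 and 2.73 in gelatin Std. It was highest in LN511 2i and lowest in LN511 Std.

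Of the folate dehydrogenases, Mthfd2 (mm10 chromosome 6, 83305704 to 83326011) was at 66.0 and 80.8 FPKM in LN511 2i, against 110.1 and 98.1 in LN511 Std. The gelatin libraries had 65.5 and 63.4 FPKM in 2i, against 96.7 and 113 in Std. All 4 of the 2i libraries lay under all 4 of the Std libraries. The log2 difference was -0.50 on LN511 (SE 0.13, limma adjusted p = 0.0422) and -0.69 on gelatin (SE 0.13, limma adjusted p = 0.0171). Mthfd1 (mm10 chromosome 12, 76254406 to 76319820) was at 134 and 83.1 FPKM in LN511 2i, against 156 and 151 in LN511 Std. On gelatin it was at 140.1 and 141 FPKM in 2i, against 145 and 126 in Std. LN511 2i replicate 2 stood below the other 7 libraries for Mthfd1, and the difference did not pass on LN511 (log2 -0.53, SE 0.21, limma adjusted p = 0.126) or on gelatin (log2 0.05, SE 0.21, limma adjusted p = 0.894). That difference turned on which LN511 2i library was kept: it was -0.88 and passed without replicate 1 (limma adjusted p = 0.00853), and -0.19 without replicate 2 (limma adjusted p = 0.291).

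Counted together, 3 of the 9 tested members were higher and 2 lower in 2i on LN511, and 2 were higher and 3 lower on gelatin. Over all 10278 tested genes, 18.5% passed on LN511 (8.58% higher and 9.95% lower in 2i) and 15.4% on gelatin (8.2% higher and 7.2% lower). Tdh, Gcat, Gldc and Mthfd2 passed on both coatings with the same sign, Shmt2 on LN511 and Phgdh on gelatin. Over 17 alternative settings of the fit, Tdh, Gcat and Gldc passed in all on both coatings. Mthfd2 passed in only 5 of the 17 on LN511 and in 14 on gelatin. The median log2 difference of the 9 was -0.10 on LN511 and 0.05 on gelatin, beside -0.04 and 0.004 over all tested genes, so the median member moved little. The call of Mthfd2 on gelatin was lost without gelatin 2i replicate 1 (limma adjusted p = 0.0762), gelatin 2i replicate 2 (0.0889) or gelatin Std replicate 2 (0.0897). On LN511 it was lost when any library other than LN511 2i replicate 2 was left out (0.0523 to 0.186), and that of Shmt2 without LN511 Std replicate 2 (0.0577), which leaves 3 members called there.

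**Figure D2:**
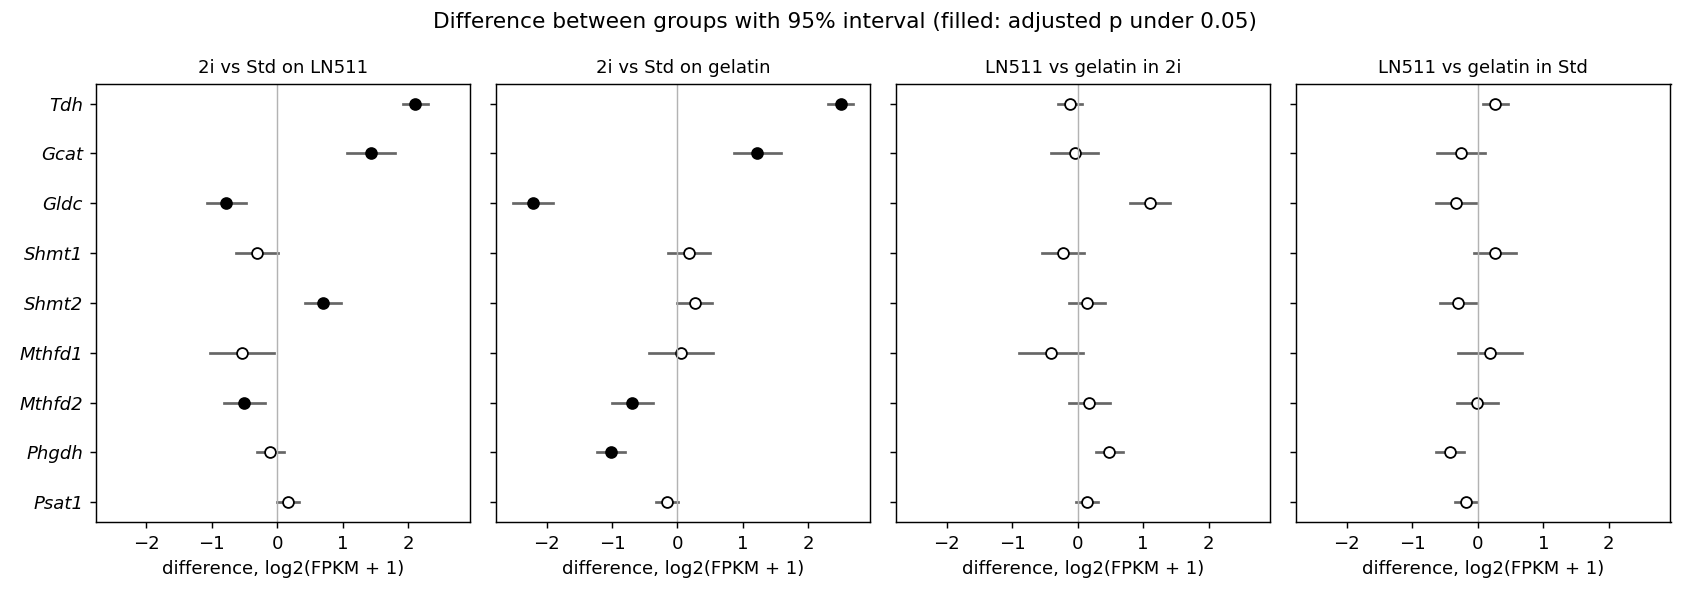
Difference of log2(FPKM + 1) with its 95% interval for the 9 tested members, in the medium comparisons (left pair of panels) and the coating comparisons (right pair). Filled points passed at a limma adjusted p under 0.05, 5 in each medium comparison and 0 in each coating comparison.

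The coating comparisons asked what LN511 changed against gelatin within a medium. In 2i, Gldc gave the largest difference of the members, at 44.4 and 43.8 FPKM on LN511, against 21.3 and 18.8 on gelatin. The groups lay 2.2-fold apart, yet the log2 difference of 1.10 (SE 0.13, 95% interval 0.80 to 1.41) had a limma adjusted p of 0.0542. Phgdh was at 117 and 132 FPKM on LN511, against 86.7 and 90.9 on gelatin (log2 0.48, 95% interval 0.28 to 0.69, limma adjusted p = 0.127). In 2i 0 of 9 members passed by limma, where 0.0195% of all genes passed, all of them higher on LN511.

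In Std medium Phgdh and Gldc had differences of the opposite sign. Phgdh was at 133 and 135 FPKM on LN511, against 187 and 174 on gelatin (log2 -0.42, SE 0.09, limma adjusted p = 0.068). Gldc was at 84.2 and 69.0 FPKM on LN511, against 92.0 and 100.4 on gelatin (log2 -0.33, 95% interval -0.63 to -0.03, limma adjusted p = 0.279). Tdh was at 70.5 and 71.3 FPKM on LN511, against 58.8 and 58.4 on gelatin (log2 0.27, 95% interval 0.08 to 0.46, limma adjusted p = 0.168). In Std 0 of 9 members passed by limma, where 2.1% of all genes passed (1.54% higher and 0.564% lower on LN511). With the scaling of libraries changed, Phgdh did pass in Std (adjusted p of 0.0317 with quantile normalization and 0.0309 with median scaling). Those were its only 2 passes there over 17 alternative settings.

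The interaction of coating and medium compares the medium difference on LN511 with that on gelatin. It was 1.43 for Gldc (SE 0.18, limma adjusted p = 0.0519) and 0.91 for Phgdh (SE 0.12, limma adjusted p = 0.0598), a positive value standing for a smaller fall in 2i on LN511. For Tdh it was -0.39 (SE 0.11, limma adjusted p = 0.256), for Shmt2 0.44 (SE 0.16, limma adjusted p = 0.359) and for Psat1 0.32 (SE 0.10, limma adjusted p = 0.277). Thus 0 of 9 members passed by limma, where 0.185% of all genes passed (0.0486% with a positive and 0.136% with a negative term). The pass of Phgdh on gelatin and its miss on LN511 therefore do not by themselves show that the coatings differ. Gldc and Phgdh lay close to the threshold, and both passed with the zeros described for Psph kept in the fit (adjusted p of 0.0453 for Gldc and 0.0478 for Phgdh). Over 16 alternative settings of the fit, however, the interaction passed in only 2 for Gldc and 3 for Phgdh.

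**Figure D3:**
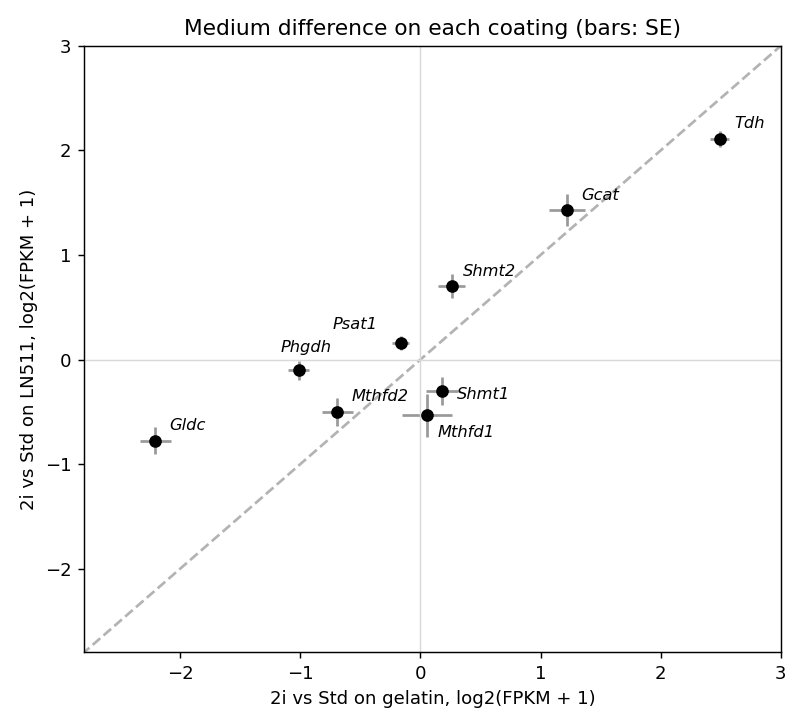
Difference between 2i and Std medium on gelatin (horizontal axis) and on LN511 (vertical axis) for the 9 tested members, on the log2(FPKM + 1) scale with bars of 1 SE. The dashed line marks equal differences: Tdh lies below it at 2.49 and 2.11, and Gldc (-2.21 and -0.78) and Phgdh (-1.01 and -0.10) lie above it.

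For Tdh, Gldc and Phgdh the genes with the most similar profile over the 8 libraries were looked up among 6172 other tested genes that averaged at least 5 FPKM. Likeness is the mean absolute difference between mean-centred log2(FPKM + 1) values, in which 0 would be the same profile. Nearest to Tdh were Susd2 (0.13), Hap1 (0.15) and Klf4 (0.15). Klf4, a factor of the naive pluripotency network, averaged 113 FPKM in LN511 2i, against 22.6 in LN511 Std, and 94.1 in gelatin 2i, against 20.1 in gelatin Std. Nearest to Gldc was Dnmt3l (0.19), the cofactor of the de novo DNA methyltransferases, followed by Selenoi (0.23) and Timm21 (0.23). Dnmt3l averaged 232 FPKM in LN511 2i, against 536 in LN511 Std, and 141 in gelatin 2i, against 519 in gelatin Std. Its likeness to Gldc in these 8 libraries is what chose it. Nearest to Phgdh were Ptgr1 (0.11), Nop10 (0.11) and Hpdl (0.11).

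Among the other 3 subunits of the glycine cleavage system, Amt rose in 2i on gelatin, Gcsh rose on both coatings and Dld fell on LN511. Amt, the aminomethyltransferase that hands the carbon to folate, was at 51.6 and 51.7 FPKM in gelatin 2i, against 18.1 and 16.4 in gelatin Std (log2 1.53, SE 0.15, limma adjusted p = 0.00178). On LN511 it was at 44.3 and 53.7 FPKM in 2i, against 30.0 and 37.8 in Std, and did not pass (log2 0.52, SE 0.15, limma adjusted p = 0.0611). Gcsh, the lipoyl carrier protein, rose by 0.57 on LN511 (SE 0.12, limma adjusted p = 0.0216) and by 0.68 on gelatin (SE 0.12, limma adjusted p = 0.0137). Its call was lost without gelatin 2i replicate 1 on gelatin (0.0807) and without any library of the comparison on LN511 (0.0631 to 0.0941). Dld, the lipoamide dehydrogenase shared with other mitochondrial complexes, was at 42.2 and 40.8 FPKM in LN511 2i, against 54.5 and 55.8 in LN511 Std (log2 -0.40, SE 0.10, limma adjusted p = 0.0413), and that call was lost without any library of the comparison or either gelatin 2i library (0.0678 to 0.15). Dld on gelatin was at 42.4 and 42.8 FPKM in 2i, against 56.5 and 48.8 in Std (log2 -0.30, limma adjusted p = 0.111). Gcsh and Dld were added to complete the complex after their values were seen. Per length, Gldc had the lowest level of the 4 subunits in both gelatin 2i libraries and the highest in both gelatin Std libraries. That order did not hold on LN511. There Gldc (44.4 and 43.8 FPKM) lay above Dld (42.2 and 40.8) in 2i. In LN511 Std Gldc (84.2 and 69.0 FPKM) lay below Gcsh (97.7 and 97.3).

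The other 3 subunits belong to a list of 24 genes of glycine and serine use and transport, of which 19 were tested. On LN511 3 rose and 7 fell in 2i (median log2 -0.40), and on gelatin 5 rose and 5 fell (median log2 -0.21), where 18.5% and 15.4% of all tested genes passed. Of these, Gatm on LN511 (lower) and Dmgdh on gelatin (higher) reached the filter level of 1 FPKM only in the medium where they were high, which fixed their direction, and without them 3 rose and 6 fell on LN511 and 4 rose and 5 fell on gelatin. Slc38a2, a transporter of small neutral amino acids, was at 37.2 and 22.5 FPKM in LN511 2i, against 143 and 144 in LN511 Std (log2 -2.27, SE 0.22, limma adjusted p = 0.00112). On gelatin it was at 37.1 and 32.7 FPKM in 2i, against 134 and 150 in Std (log2 -1.996, SE 0.22, limma adjusted p = 0.0024). Its relative Slc38a1 fell by 1.18 on LN511 (SE 0.13, limma adjusted p = 0.0023). Gclc, the catalytic subunit of the enzyme that starts glutathione synthesis, fell by 1.25 on LN511 (SE 0.18, limma adjusted p = 0.00558) and by 1.54 on gelatin (SE 0.18, limma adjusted p = 0.00317). Gclm, its modifier subunit, fell by 1.27 on LN511 (SE 0.18, limma adjusted p = 0.00475) and by 1.26 on gelatin (SE 0.18, limma adjusted p = 0.00573). Gss, which adds glycine to finish glutathione, rose by 1.79 on LN511 (SE 0.21, limma adjusted p = 0.0025), at 25.6 and 32.3 FPKM in 2i, against 8.33 and 6.98 in Std. Glutathione synthesis thus had both entry subunits lower and its glycine-using enzyme higher. The other genes that rose were Sptlc2 and Gcsh on LN511, and Amt, Gss, Gcsh, Sptlc2 and Dmgdh on gelatin. The count on LN511 was 1 higher and 6 lower without LN511 2i replicate 1, and 1 higher and 4 lower without any other 1 of its libraries. On gelatin it was 1 higher and 3 lower without 2i replicate 1, 2 and 5 without 2i replicate 2, and 3 and 3 without either Std replicate.

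Purine and thymidylate synthesis draws on the one-carbon units, though not every gene listed for it uses them. Of 18 genes, 16 were tested, and 1 rose and 5 fell in 2i on LN511 (median log2 -0.18), while 0 rose and 8 fell on gelatin (median log2 -0.29). These calls are 37.5% and 50% of the list, beside 18.5% and 15.4% of all tested genes (9.95% and 7.2% lower). The medians over all tested genes were -0.04 and 0.004. Prps2, which makes the ribose donor, was at 3.31 and 3.70 FPKM in LN511 2i, against 23.9 and 19.6 in LN511 Std, and at 2.15 and 2.13 in gelatin 2i, against 14.0 and 14.5 in gelatin Std. Its log2 differences were -2.33 (SE 0.20, limma adjusted p = 0.000731) and -2.28 (SE 0.20, limma adjusted p = 0.00101). Atic, the last enzyme of the purine route and a user of formyl-folate, fell by 0.72 on LN511 (SE 0.08, limma adjusted p = 0.00252). The riser was Tk1, thymidine kinase, on LN511 (log2 1.10, SE 0.14, limma adjusted p = 0.00331). The others that fell on LN511 were Adsl, Gart and Gmps. The count of falls on gelatin was 2 without 2i replicate 1, 3 without 2i replicate 2 or Std replicate 1, and 5 without Std replicate 2. On LN511 it was 3 without 2i replicate 1 or Std replicate 1, 4 without 2i replicate 2 and 2 without Std replicate 2.

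Amino acid response genes were listed because ATF4, a factor induced by amino acid shortage, is known to induce Phgdh, Psat1, Shmt2 and Mthfd2. Of 26 targets outside the members, 19 were tested. In 2i 5 rose and 0 fell on LN511 (median log2 0.15), and 1 rose and 5 fell on gelatin (median log2 -0.08). Calls thus made up 26.3% and 31.6% of the tested targets, beside 18.5% and 15.4% of all tested genes. Of all tested genes, 8.58% were higher and 9.95% lower in 2i on LN511, and 8.2% higher and 7.2% lower on gelatin. Their medians were -0.04 and 0.004. Asns, asparagine synthetase, was at 571 and 591 FPKM in LN511 2i, against 134 and 131 in LN511 Std (log2 2.12, SE 0.08, limma adjusted p = 5.32e-05). The gelatin libraries held 510 and 493 FPKM in 2i, against 125 and 146 in Std (log2 1.88, SE 0.08, limma adjusted p = 8.91e-05). Chac1, a glutathione-degrading enzyme, averaged 8.26 FPKM in gelatin 2i, against 24.4 in gelatin Std (log2 -1.44, SE 0.25, limma adjusted p = 0.0118), a call lost without gelatin 2i replicate 1 (0.0552), gelatin 2i replicate 2 (0.068) or gelatin Std replicate 1 (0.0675). On gelatin Asns was thus higher and Chac1 lower in the same libraries. The others called were Pck2, Nars, Nupr1 and Slc7a1, all higher on LN511, and Stc2, Cebpb, Slc3a2 and Atf4 itself, all lower on gelatin, and no gene of the list passed for the interaction. The falls on gelatin came down to 0 without gelatin Std replicate 1 and to 1 without any other library of that comparison.

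In the methionine cycle and its side branches, 2 of 11 tested genes rose and 5 fell on LN511 (median log2 -0.09), and 3 rose and 1 fell on gelatin (median log2 -0.14). Over all tested genes 18.5% passed on LN511 (8.58% higher and 9.95% lower) and 15.4% on gelatin (8.2% higher and 7.2% lower). The medians over all tested genes were -0.04 and 0.004. Cth, which makes cysteine in the transsulfuration route from serine, was at 188 and 190.2 FPKM in LN511 2i, against 115 and 120 in LN511 Std (log2 0.68, SE 0.07, limma adjusted p = 0.00135). Cth on gelatin was at 146 and 151 FPKM in 2i, against 102 and 99.9 in Std (log2 0.56, SE 0.07, limma adjusted p = 0.00368). Srm, spermidine synthase, fell by 0.69 on LN511 (SE 0.10, limma adjusted p = 0.0049) and by 0.95 on gelatin (SE 0.10, limma adjusted p = 0.0018). The others called were Ahcyl1, Mat2a, Ahcy and Sms (lower) and Bhmt (higher) on LN511, and Bhmt and Bhmt2 (higher) on gelatin. Bhmt and Bhmt2 reached 1 FPKM only in 2i libraries, which fixed their direction, and without them 1 rose and 5 fell on LN511 and 1 rose and 1 fell on gelatin. The count on LN511 was 1 higher and 4, 5, 3 and 2 lower without 2i replicate 1, 2i replicate 2, Std replicate 1 and Std replicate 2. On gelatin it was 1 higher and 1 lower without any 1 library of that comparison.

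Of 17 tested genes of the folate cycle outside the members, 0 rose and 2 fell on LN511 (Mtfmt and Sfxn1), and 1 rose and 0 fell on gelatin (Mtr, methionine synthase), with medians of 0.07 and -0.12 on the log2 scale. These calls are 11.8% and 5.88% of the list, under the 18.5% and 15.4% of all tested genes. Mtfmt was lost without any 1 library of the comparison (adjusted p of 0.0631 to 0.0864), Sfxn1 without any library other than LN511 2i replicate 2 (0.0509 to 0.139), and Mtr without any library other than gelatin 2i replicate 1 (0.0599 to 0.161). Mtr was also lost with no filter, doubtful zeros kept, either rescaling, only the 4 libraries, the replicate block or no trend (0.0523 to 0.114). Of 6 tested genes on the threonine and acetyl-CoA side, 2 rose and 0 fell on LN511 (Acat2 and Acly), and 2 rose and 1 fell on gelatin (Acat2 and Kat2a, and Slc3a2). Calls were thus 33.3% and 50% of this short list, beside the same 18.5% and 15.4% of all tested genes. On LN511 0 were called without LN511 2i replicate 2 or either LN511 Std replicate. Kat2a was lost without gelatin 2i replicate 2 or either gelatin Std replicate (0.0547 to 0.091), and Slc3a2 without gelatin 2i replicate 1, either gelatin Std replicate or either LN511 Std replicate (0.0615 to 0.149). Acat2, the cytosolic acetyl-CoA acetyltransferase, averaged 81.8 ± 8.53 FPKM in gelatin 2i and 29.7 ± 0.79 FPKM in gelatin Std (SD, n = 2; log2 1.43, SE 0.12, limma adjusted p = 0.00105). Between the coatings, 4 genes over all lists passed in Std medium (Mat2a and Amt higher, Nupr1 and Nars lower on LN511) and 0 in 2i. The lists held 17, 19, 11, 16, 19 and 6 tested genes, with Tars and Slc3a2 shared between lists. Over all tested genes 2.1% passed in Std (1.54% higher and 0.564% lower on LN511) and 0.0195% in 2i. In Std, Mat2a, which makes S-adenosylmethionine, averaged 203 ± 3.94 FPKM on LN511 and 121 ± 4.85 FPKM on gelatin (SD, n = 2 each; log2 0.74, SE 0.07, limma adjusted p = 0.00726). That call was lost without LN511 Std replicate 1 (0.0717), LN511 Std replicate 2 (0.0658) or gelatin Std replicate 2 (0.0509), and the calls of Amt, Nupr1 and Nars without any 1 of the 4 Std libraries or of the gelatin 2i libraries (0.0679 to 0.195). In 2i the coating differences closest to passing were those of Impdh1 (log2 0.98, limma adjusted p = 0.0715) and Acat2 (log2 -0.80, limma adjusted p = 0.0888).

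**Figure D4:**
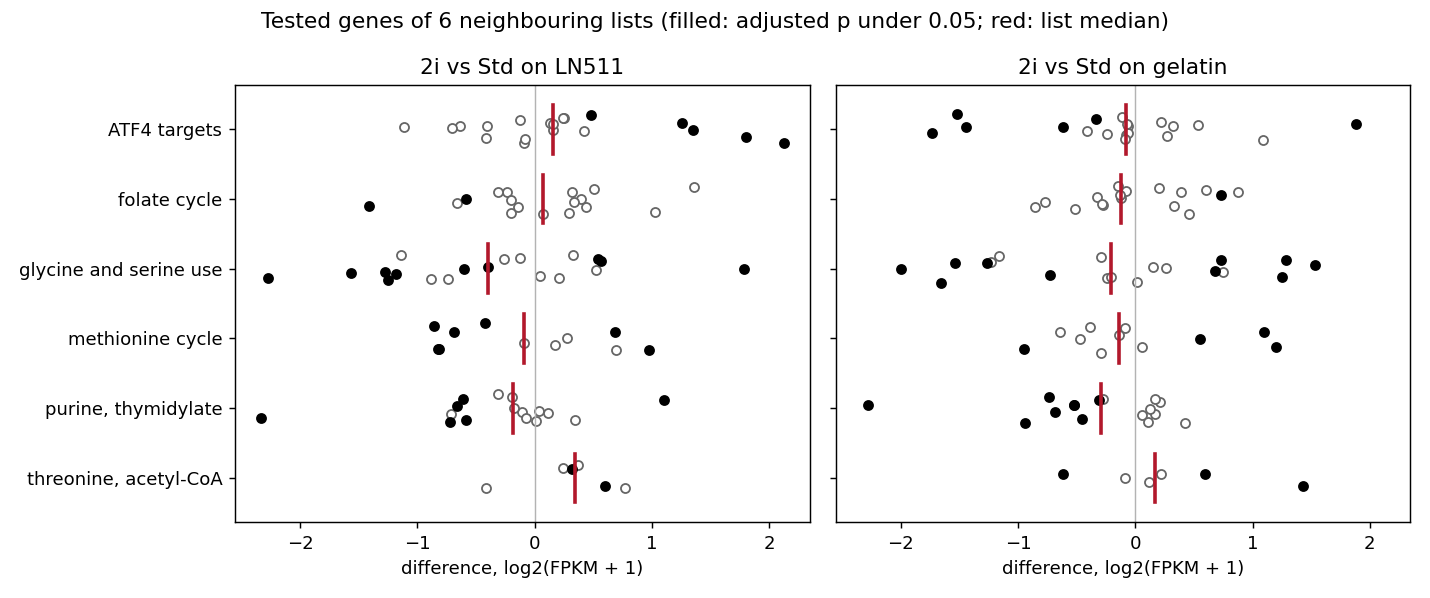
Difference between 2i and Std medium on the log2(FPKM + 1) scale for the tested genes of 6 lists around the members, on LN511 (left) and on gelatin (right). Each point is a gene, filled where it passed at a limma adjusted p under 0.05, and the red line is the median of the list, which runs from -0.40 to 0.34 on LN511 and from -0.29 to 0.17 on gelatin.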

How the data were processed

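The authors deposited gene and transcript tables in FPKM. The submitters' processing notes name the build mm10 and the tools TopHat2 (version 2.1.1) and Cufflinks (version 2.1.1). Which role each had, and the annotation, strandedness and scaling, is not given in the sources used here. Of the 80 values of the members, 20 are above 0 in the gene table and 74 in the transcript sums, so sums over RefSeq transcripts were used. Of 32688 RefSeq rows, 31786 matched a symbol in the RefSeq table for GRCm38.p6, and 21844 rows of assembled transcripts were left out.

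Genes at 1 FPKM or more in at least 2 libraries were kept (11244), and 966 were set aside where a replicate was at 0 while its partner reached 5 FPKM, or a whole group was at 0 while another averaged 5. The remaining 10278 were fitted with limma 3.58.1 in R 4.3.3 (eBayes with trend) on log2(FPKM + 1), 1 mean per group, 4 residual degrees of freedom, with Benjamini-Hochberg adjustment over all genes within a comparison and a threshold of 0.05. A difference on this scale understates the change of low genes. Depth was read from low FPKM values of genes with 1 transcript, as the modal product of value and transcript length. The members and lists were chosen with earlier results of these data known. All 10 members are named, and from each list up to 4 called genes per medium comparison and 3 per coating comparison by adjusted p. Other list genes were named after their values were seen. Alternatives changed the pseudocount, filters, scaling, source table, libraries and replicate block.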

Additional observations from a re-analysis of the deposited data

How the results depend on the processing

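Over 756 refits of the member differences, 730 kept their direction where called and their side of the threshold, 16 lost a call and 10 gained one. No call changed sign. Tdh, Gcat and Gldc passed in both medium comparisons under all 17 alternatives, Gldc at an adjusted p of up to 0.0495. The number of members called, 5 on LN511 and 5 on gelatin, was 3 to 5 and 4 to 5 with 1 library left out, and 0 to 0 in the coating comparisons and the interaction. It was 1 and not 0 for the coating in Std with quantile normalization and with median scaling (Phgdh, both times), 1 for the coating in 2i with median scaling and with doubtful zeros kept (Gldc, both times), and for the interaction 1 with quantile normalization (Phgdh), 2 with median scaling and 2 with doubtful zeros kept (Gldc and Phgdh). The cause was not tested. The deposited gene table gave no value for a member, since each had no row or was set aside for its zeros. In that table Prps2 had log2 differences of 1.116 on LN511 and 0.83 on gelatin, against falls in the sums. The alternatives for the genes of the other lists were added after the data had been seen.

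Differences between replicates 1 and 2 correlated at -0.02 to 0.02 between groups, so no shift shared by libraries of the same number was seen across genes. Whether libraries of the same number were handled together is not given in the sources used here. With the replicate block 4 members were called on LN511 and 5 on gelatin, where Mthfd2 missed on LN511 (adjusted p = 0.0612). It called 80 genes in all and not 216 for the coating in Std, and 1 and not 19 for the interaction. With 1 library left out, 861 to 1625 genes in all were called on LN511 and 648 to 1516 on gelatin, where the full set gave 1905 and 1583. At the depth read from low values, single transcripts of Gcat and Shmt2 are split imprecisely, and no limit can be set on Psph.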
